A study of Mus musculus with 6 samples.

Results

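The nuclear genes for subunits of respiratory complexes II, III, IV and V and for cytochrome c were compared between 2 mouse podocyte lines. They were taken by gene symbol alone, as Sdha to Sdhd, Cyc1, Cycs and every gene whose platform symbol began with Uqcr, Cox4i, Cox5, Cox6, Cox7, Cox8 or Atp5, leaving out pseudogenes. This gave 49 of the 30705 genes tested. Complex II had 4 of them, complex III 9, complex IV 18 and complex V 16, and cytochrome c was represented by Cycs. The remaining gene, Atp5sl, carries an Atp5 symbol but is listed as Dmac2 in the reference annotation, is not a subunit of these complexes, and is kept apart, so that 48 are called subunits below. Genes of the mitochondrial genome that encode further subunits of complexes III, IV and V, and the gene for the gamma subunit of complex V, Atp5c1, were not analysed here.

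Podocytes are the epithelial cells that wrap the glomerular capillaries of the kidney. The knockout cells came from a line labelled NCK1/2 knockout, lacking the adaptor proteins Nck1 and Nck2 that couple phosphorylated receptors to actin, and the others from a line labelled wildtype. Both lines were conditionally immortalized and kept on type I collagen, where they differentiated over 10 days before total RNA was taken, and each was represented by 3 Affymetrix arrays that the design text calls independent. With 1 line per genotype, an effect of the genotype and any other difference between the lines cannot be told apart, and p-values measure only the spread between these arrays. How the alleles were disrupted is not given in the sources used here. The values are log2 intensities normalized by the authors with RMA, so each is relative to the other transcripts on its array. Among 23 probe sets that measure background the highest mean was 7.78, and a mean at or below this is called within the background range. The podocyte label was checked with 5 measured markers, of which 3 (Nphs1, Wt1 and Ptpro) lay within the background range in both lines and none differed at an adjusted p under 0.05. The number of arrays limits the precision.

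Complexes II to V carry electrons from succinate and ubiquinol to oxygen and use the proton gradient this creates to make ATP. Complex II, succinate dehydrogenase, also belongs to the citric acid cycle. Complex III passes electrons from ubiquinol to cytochrome c, a small soluble carrier, and complex IV, cytochrome c oxidase, passes them on to oxygen. Complex V is the ATP synthase, in which protons turn a ring of c subunits and so drive the catalytic F1 head. Apart from complex II, each combines nuclear subunits with subunits made inside the mitochondrion, and several nuclear subunits of complex IV exist as ubiquitous forms and as forms typical of heart and skeletal muscle, lung or testis.

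Most of the ubiquitous subunits were lower in knockout, by modest amounts. Of the 49 genes, 29 fell (limma, Benjamini-Hochberg adjusted p under 0.05 over all genes), none rose and 20 did not pass. Over all genes tested, 6.91% fell and 5.05% rose, 12.0% in either direction, and among genes with a mean above the background range 13.5% fell. With the median of each chromosome taken off, 29 of the 49 fell as well, while over all genes the split of 2121 lower and 1552 higher became 1795 lower and 2374 higher. The median log2 difference was -0.37 over the 48 subunits, against 0.01 over all genes, and the median was -0.45 over the 40 subunits left when tissue-restricted forms and Cox7a2l are set aside. The 29 falls ran from -0.26 for Atp5b to -0.77 for Cox5b, that is from 83.7% to 58.4% of the wildtype intensity. All 3 knockout values lay below all 3 wildtype values for 36 of the 49 genes, where 14.8% of all genes and 28.0% of those above the background range did so. In bulk RNA, fewer cells of a type and less RNA per cell cannot be told apart. Markers of proximal tubule moved beside these genes. Aqp1, a water channel, averaged 9.42 in knockout and 12.92 in wildtype, a difference of -3.50, while Cubn (-0.56, within the background range) and Lrp2 (-0.36) fell less and Slc34a1 and Slc5a2 (0.09 and 0.05) did not pass. In all 3 of 5 fell, and 3 of 5 had a mean within the background range. The log2 of the 5 summed intensities was 11.86 to 11.96 in knockout and 13.46 to 13.56 in wildtype. That sum rests mostly on the brightest markers, Aqp1 and Lrp2, and its fall mostly on Aqp1. The part of these 5 markers in the result was not tested.

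**Figure D1:**
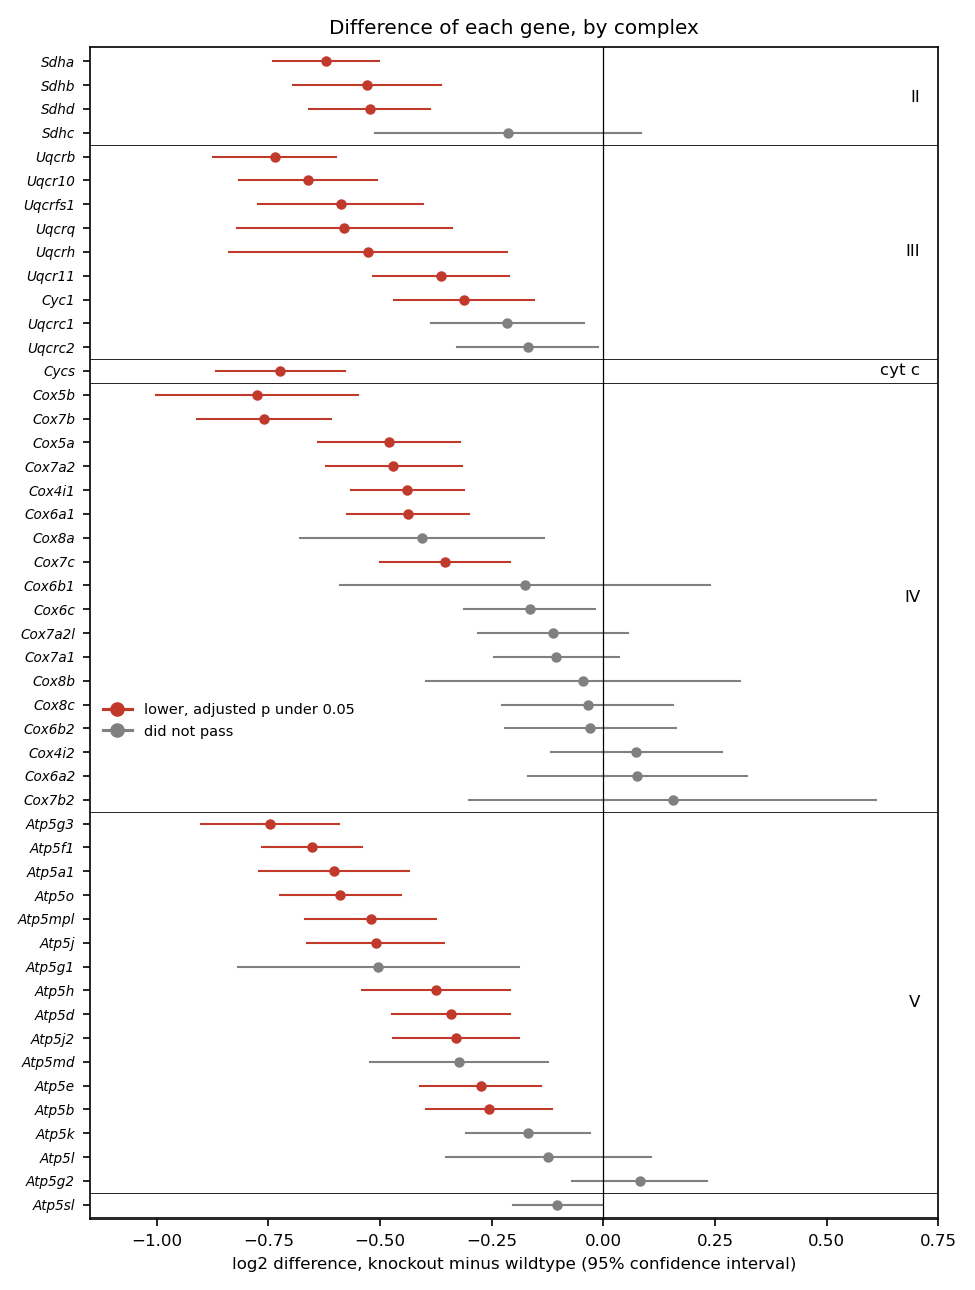
Log2 difference, knockout minus wildtype, of each of the 49 genes, grouped by complex, with points for the difference and bars for its 95% confidence interval. The 29 genes in red fell, with differences from -0.26 to -0.77, and the genes in grey did not pass.

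The arrays of each line did not contribute alike. Relative to the mean of the wildtype arrays, the median of the 48 subunits stood at -0.42 on knockout replicate 1, -0.43 on replicate 2 and -0.28 on replicate 3, and between -0.02 and 0.03 on the wildtype arrays. Knockout replicate 3 gave the highest of the 3 knockout values for 31 of the 48 subunits and replicate 2 the lowest for 27. Without knockout replicate 3, Sdhc, Cox6b1, Cox8a, Atp5g1 and Atp5md also passed, at limma adjusted p = 0.0195, 0.0189, 0.0139, 0.00464 and 0.0138. In that fit Uqcr11, Atp5b and Atp5e no longer passed, and the total was 31. Of the 29 genes, 19 also passed whichever array was left out.

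**Figure D2:**
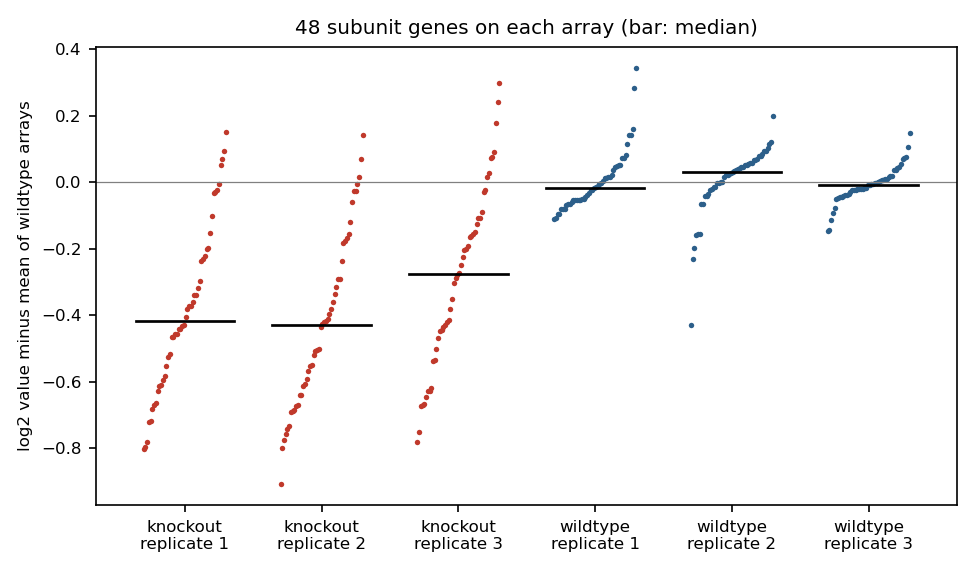
Each point is 1 of the 48 subunit genes on 1 array, as its log2 value minus the mean of the 3 wildtype arrays, sorted within the array, and each black bar is the median. The medians are -0.42, -0.43 and -0.28 on the knockout arrays and near 0 on the wildtype arrays.

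In complex II the catalytic subunits and a membrane anchor fell together. Sdha, the flavoprotein that oxidizes succinate, stood at 9.50, 9.42 and 9.39 in knockout, against 10.04, 10.08 and 10.05 in wildtype. The groups were far apart beside their spread, and the log2 difference was -0.62 (SE 0.05, limma adjusted p = 0.000601). Sdhb, the iron-sulfur subunit, read 8.65, 8.71 and 8.84 in knockout and 9.22, 9.34 and 9.22 in wildtype, a difference of -0.53 (SE 0.07, limma adjusted p = 0.00422). Sdhd, which with Sdhc anchors the enzyme in the membrane and forms its ubiquinone site, was at 9.44, 9.34 and 9.36 in knockout and 9.82, 9.95 and 9.94 in wildtype, a difference of -0.52 (SE 0.06, limma adjusted p = 0.00203). No knockout array reached a wildtype array for these 3 genes. Sdhc itself gave 8.87, 8.79 and 9.27 in knockout and 9.17, 9.24 and 9.17 in wildtype. Here knockout replicates 1 and 2 lay below every wildtype array and replicate 3 above them, and the difference of -0.21 (95% confidence interval -0.51 to 0.08) did not pass.

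Complex III and cytochrome c held some of the larger falls, and neither core protein of complex III passed. Of 9 complex III genes 7 fell, none rose and 2 did not pass, with a median of -0.53. Uqcrb, a small subunit near the ubiquinone site, read 10.28, 10.27 and 10.25 in knockout, against 10.90, 11.02 and 11.08 in wildtype, a difference of -0.74 (SE 0.06, limma adjusted p = 0.000554). The knockout arrays agreed to within a few hundredths and lay well below all wildtype arrays. Uqcrfs1, the Rieske iron-sulfur protein that takes the first electron from ubiquinol, was at 7.62, 7.56 and 7.81 in knockout and 8.19, 8.33 and 8.24 in wildtype, a difference of -0.59 (SE 0.08, limma adjusted p = 0.00431). Uqcr10, another small subunit, gave 7.63, 7.61 and 7.67 in knockout and 8.22, 8.42 and 8.26 in wildtype, a difference of -0.66 (SE 0.06, limma adjusted p = 0.0014). For both genes the groups were separate, and the knockout mean lay within the background range, so the lower level was not separated from background.

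The other catalytic subunit, Cyc1, which carries the heme of cytochrome c1, fell by 0.31 on the log2 scale (limma adjusted p = 0.0265). Among the remaining small subunits, Uqcrq, the hinge protein gene Uqcrh and Uqcr11 fell, with log2 differences of -0.58, -0.53 and -0.36 and limma adjusted p from 0.0129 to 0.0484. These 4 calls were the less secure ones of the complex. Cyc1 and Uqcrh each lost the call when knockout replicate 1 or 2 or any wildtype array was left out, Uqcrq without knockout replicate 2 and Uqcr11 without knockout replicate 1 or 3. With 1 array left out, 4 to 6 of the 9 genes fell, and 4 did so without knockout replicate 1 or replicate 2. The core proteins Uqcrc1 and Uqcrc2, the large subunits on the matrix side, differed by -0.21 (95% confidence interval -0.39 to -0.04) and -0.17 (-0.33 to -0.01) and did not pass over all genes, at limma adjusted p = 0.121 and 0.181. For Uqcrc1 the groups did not overlap, and for Uqcrc2 knockout replicate 3 lay just above wildtype replicate 1.

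Cycs, the somatic cytochrome c, stood at 10.44, 10.47 and 10.60 in knockout, against 11.17, 11.23 and 11.28 in wildtype. The difference was -0.72 (SE 0.06, limma adjusted p = 0.000706), with every knockout array lower. The probe set used is named for chromosome 19, while Cycs lies on chromosome 6, so which copy of the sequence it reads is uncertain. The probe set named for chromosome 6 gave 9.72, 9.78 and 9.95 in knockout and 10.38, 10.44 and 10.45 in wildtype, and fell by 0.60 when it was used instead (limma adjusted p = 0.00271). The testis cytochrome c gene Cyct, which is not among the 49, was within the background range in both lines and differed by 0.002.

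**Figure D3:**
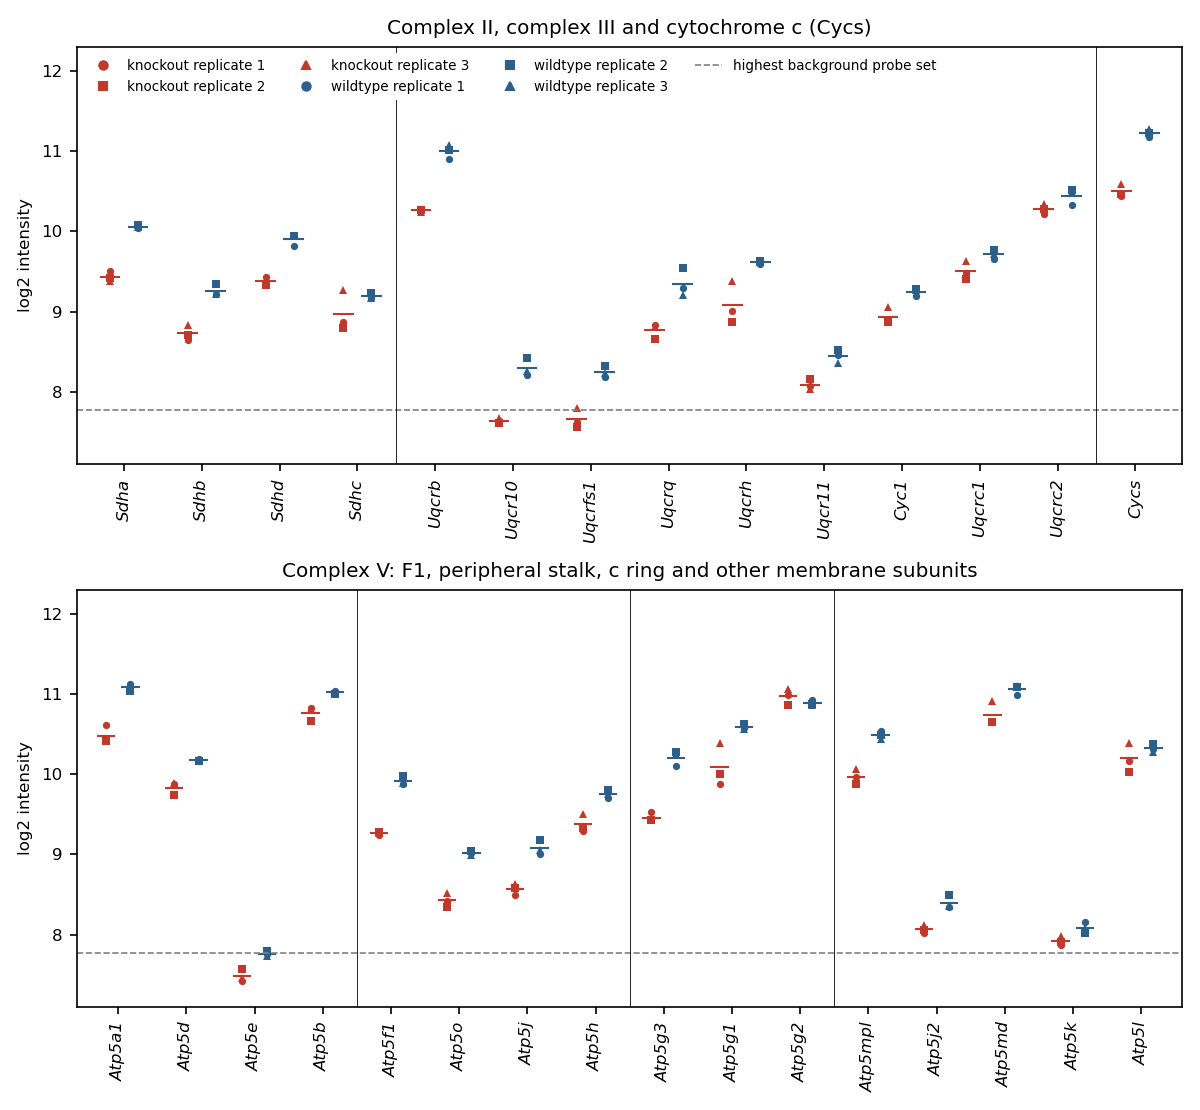
Log2 intensity of the subunit genes of complexes II and III and of Cycs (top) and of complex V by part of the enzyme (bottom), with knockout left of wildtype for each gene, 1 symbol per array and bars for group means. The dashed line marks the highest background probe set at 7.78. Atp5g2 is the only gene shown whose knockout mean is above its wildtype mean.

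In complex IV most ubiquitous forms fell and the tissue-restricted forms did not pass. Of 18 genes 7 fell, none rose and 11 did not pass. All 7 were among the 10 genes that are ubiquitous forms or have no tissue form, leaving Cox7a2l aside, and these 10 had a median difference of -0.44. Cox5b, a zinc-binding subunit on the matrix side, read 9.52, 9.41 and 9.70 in knockout, against 10.43, 10.31 and 10.20 in wildtype, a difference of -0.77 (SE 0.09, limma adjusted p = 0.00325). Cox5a, its neighbour on the matrix side, gave 8.90, 8.81 and 8.92 in knockout and 9.26, 9.46 and 9.35 in wildtype, a difference of -0.48 (SE 0.07, limma adjusted p = 0.00531). Neither gene showed any overlap between the lines. Cox7c, a small membrane-spanning subunit, fell by 0.36 (limma adjusted p = 0.0125), a call lost without knockout replicate 1 or 2 or without wildtype replicate 3. Cox6c, another membrane-spanning subunit, differed by -0.17 (95% confidence interval -0.31 to -0.02) with no overlap between the groups and did not pass over all genes.

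The isoform families set a ubiquitous form beside one typical of another tissue. Cox4i1, the ubiquitous form of the subunit through which ATP inhibits the enzyme, stood at 8.72, 8.64 and 8.76 in knockout, against 9.16, 9.18 and 9.10 in wildtype, a difference of -0.44 (SE 0.05, limma adjusted p = 0.0031). Cox4i2, the form found in lung and induced by low oxygen in other cells, read 7.72, 7.81 and 7.69 in knockout and 7.72, 7.51 and 7.77 in wildtype, a difference of 0.07 (95% confidence interval -0.12 to 0.27). The Cox4i1 values separated the lines, and those of Cox4i2 overlapped at a level within the background range. Among other genes linked to low oxygen in this setting, Ndufa4l2, Higd1a and Lonp1 differed by 0.01, 0.04 and 0.06 and did not pass. Of these, Ndufa4l2 and Higd1a had means within the background range in both lines.

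Cox6a1, the liver-type and ubiquitous form of subunit 6a, gave 11.96, 11.87 and 12.05 in knockout and 12.42, 12.40 and 12.37 in wildtype, a difference of -0.44 (SE 0.06, limma adjusted p = 0.00413). Its heart and muscle counterpart Cox6a2 gave 7.94, 7.94 and 7.96 in knockout and 8.03, 7.64 and 7.94 in wildtype, a difference of 0.08 (-0.17 to 0.32). The first pair of groups did not overlap and the second did. Cox7a2, the ubiquitous form of subunit 7a, was at 8.998, 8.93 and 8.96 in knockout and 9.40, 9.55 and 9.35 in wildtype, a difference of -0.47 (SE 0.06, limma adjusted p = 0.00486). The heart and muscle form Cox7a1 was at 6.96, 6.88 and 6.83 in knockout and 7.07, 6.96 and 6.96 in wildtype, a difference of -0.10 (-0.24 to 0.03). Cox7a2l, a relative that joins complexes III and IV into supercomplexes, was at 8.84, 8.88 and 9.05 in knockout and 8.98, 9.09 and 9.04 in wildtype, a difference of -0.11 (-0.28 to 0.06). Only Cox7a2 of these 3 separated the lines.

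Cox7b, the X-linked ubiquitous form of a small subunit needed for assembly of the complex, read 10.01, 10.01 and 10.13 in knockout, against 10.73, 10.88 and 10.82 in wildtype, a difference of -0.76 (SE 0.06, limma adjusted p = 0.000689). Every knockout array was lower by a wide margin. The median difference of 297 brighter protein-coding genes on the X chromosome was -0.21, and that of 3 on the Y chromosome was 2.84. The reason for either was not tested. With chromosome medians taken off, Cox7b still fell by 0.55 (limma adjusted p = 0.00252). The testis form Cox7b2 read 5.34, 5.21 and 5.49 in knockout and 5.47, 4.76 and 5.34 in wildtype, a difference of 0.15 (-0.30 to 0.61), deep within the background range.

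In the 2 remaining families no form passed. The ubiquitous Cox8a differed by -0.41 (95% confidence interval -0.68 to -0.13, limma adjusted p = 0.0725) with no overlap between the groups. Knockout replicate 3 at 11.37 stood above the other knockout arrays at 11.09 and 10.92 and below the wildtype arrays at 11.59, 11.50 and 11.53. The ubiquitous Cox6b1, which lies where the monomers of the enzyme meet, had knockout values of 10.34, 10.25 and 10.92 and wildtype values of 10.69, 10.73 and 10.63, a difference of -0.18 (-0.59 to 0.24). Here knockout replicate 3 was the highest of all 6 arrays. The muscle form Cox8b and the testis forms Cox8c and Cox6b2 differed by -0.05, -0.04 and -0.03, all within the background range. Of the 7 tissue-restricted forms, 6 had a mean within that range, the exception being Cox6a2 at 7.95 in knockout and 7.87 in wildtype. These Cox6a2 means lay only just above the limit of 7.78, and wildtype replicate 2, at 7.64, lay below it. Of 8 striated muscle markers 1 rose (Tnnt2, by 0.50), a count too small to be read against the 5.05% of all genes that rose. Of 7 testis germ cell markers none passed. In each of these 2 lists 6 markers had a mean within the background range. The log2 of the summed intensities was 10.52 to 10.57 in knockout and 10.22 to 10.54 in wildtype for muscle. For testis it was 9.26 to 9.27 in knockout and 9.12 to 9.37 in wildtype.

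Whether paralogs of a family differed in their response was tested on the log2 ratio within each array, by a two-sided exact permutation test over the 6 arrays. With 3 arrays a group the smallest p this test can give is 0.1, which any pair of groups without overlap receives, so it could call none of the 10 contrasts and the sizes are given as a description. The change of the tissue form minus that of the ubiquitous form was 0.51 for Cox4i2 against Cox4i1, 0.51 for Cox6a2 against Cox6a1, 0.37 for Cox7a1 against Cox7a2 and 0.91 for Cox7b2 against Cox7b, each with no overlap between the lines (exact p = 0.1, 0.143 after Benjamini-Hochberg adjustment over the 10). Cox7a2l against Cox7a2, at 0.36, and Cox8c against Cox8a, at 0.37, did not overlap either. Cox8b against Cox8a (0.36, exact p = 0.2) and Cox6b2 against Cox6b1 (0.15, exact p = 0.6) had ratios that overlapped between the lines. All tissue forms but Cox6a2 lay within the background range, where a probe set's value is not separated from background. Cox6a2 lay only just above that range.

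**Figure D4:**
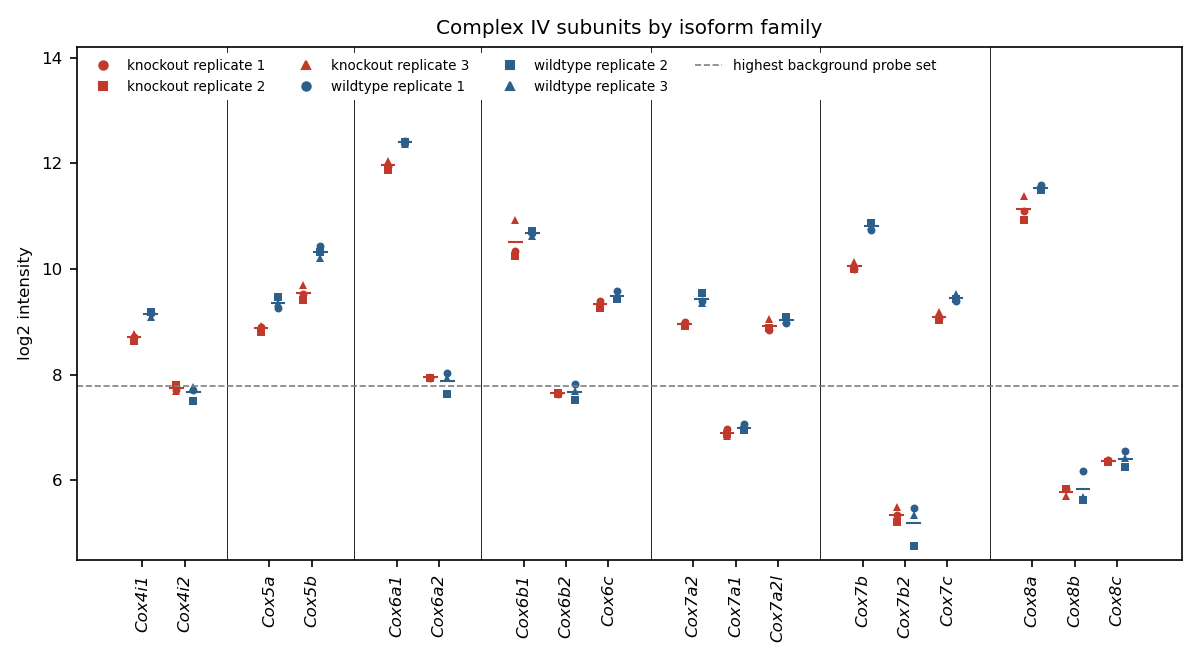
Log2 intensity of the 18 complex IV genes by isoform family, with knockout left of wildtype for each gene, 1 symbol per array and bars for group means. The ubiquitous forms Cox4i1, Cox6a1, Cox7a2, Cox7b and Cox8a are separated between the lines, though Cox8a did not pass. All tissue forms but Cox6a2 have means at or below the dashed line, the highest background probe set at 7.78.

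In complex V the catalytic head and the peripheral stalk fell throughout, and the c ring and the other membrane subunits did so in part. Of 16 genes 11 fell, none rose and 5 did not pass, with a median of -0.36. All 4 measured genes of the F1 head fell. Atp5a1, the alpha subunit, read 10.62, 10.41 and 10.42 in knockout, against 11.13, 11.04 and 11.08 in wildtype, a difference of -0.60 (SE 0.07, limma adjusted p = 0.00271). The beta subunit gene Atp5b, which carries the catalytic sites with alpha, changed least of the 4, by -0.26 (SE 0.06, limma adjusted p = 0.0369), and lost its call when any single array was left out. The delta and epsilon genes of the central stalk, Atp5d and Atp5e, fell, with log2 differences of -0.34 and -0.27. Atp5e lay within the background range in both lines and lost its call without knockout replicate 1 or 3 or any wildtype array. Atp5d lost its call without wildtype replicate 3 and also when its 2 probe sets were averaged (-0.13), the second set being within the background range.

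The peripheral stalk holds the F1 head still while the ring turns, and all 4 of its genes fell. Atp5f1, the b subunit, stood at 9.24, 9.28 and 9.27 in knockout, against 9.88, 9.97 and 9.89 in wildtype, a difference of -0.65 (SE 0.05) with the lowest adjusted p of the 49 genes (limma adjusted p = 0.000381). Atp5o, the oligomycin sensitivity protein that joins the stalk to the head, gave 8.42, 8.34 and 8.51 in knockout and 9.01, 9.04 and 8.99 in wildtype, a difference of -0.59 (SE 0.06, limma adjusted p = 0.00128). Both separated the lines by several times the spread within either. Atp5j, coupling factor 6, fell by 0.51 (limma adjusted p = 0.00368). Atp5h, the d subunit, fell by 0.38 (limma adjusted p = 0.0164), a call lost without knockout replicate 1 or 2 or wildtype replicate 2 or 3.

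The c ring is built from one mature protein encoded by 3 genes, of which 1 passed. Atp5g3 stood at 9.52, 9.43 and 9.42 in knockout, against 10.10, 10.27 and 10.25 in wildtype, a difference of -0.75 (SE 0.06, limma adjusted p = 0.000823). Atp5g1 read 9.87, 10.00 and 10.39 in knockout and 10.57, 10.63 and 10.57 in wildtype, a difference of -0.50 (SE 0.13, limma adjusted p = 0.0577) that just missed, though no knockout array reached a wildtype one. Atp5g2 read 10.98, 10.86 and 11.06 in knockout and 10.92, 10.87 and 10.87 in wildtype, a difference of 0.08 (95% confidence interval -0.07 to 0.23). Its groups overlapped, and its second probe set, named for another chromosome, differed by 0.10. The change of Atp5g2 minus that of Atp5g3 was 0.83, where the ratio had an SD of 0.11 in knockout and 0.13 in wildtype (n = 3 each) and the lines did not overlap (exact p = 0.1, the smallest possible). The change of Atp5g1 minus that of Atp5g3 was 0.24 (exact p = 0.3). Copies of these genes elsewhere in the genome can share probes, so levels within the family are uncertain.

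Among the other membrane subunits, which shape the dimer of the enzyme and the cristae, Atp5mpl fell by 0.52 (limma adjusted p = 0.00283) and Atp5j2, the f subunit, fell by 0.33 (limma adjusted p = 0.014, lost without knockout replicate 1 or 2 or wildtype replicate 3). Atp5md differed by -0.32 (limma adjusted p = 0.0563) and Atp5k, the e subunit, by -0.17 (limma adjusted p = 0.129), both with no overlap between the lines and neither passing. Atp5l, the g subunit, differed by -0.12 on a probe set named for chromosome 5 and by -0.10 on the brighter of those named for its own chromosome 9, and passed on neither. Atp5sl, the gene that is not a subunit, differed by -0.10 (-0.20 to -0.003, limma adjusted p = 0.203). Over complex V, 6 to 11 genes fell with 1 array left out, 7 without knockout replicate 1 and 6 without wildtype replicate 3.

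Subunits of these complexes are known targets of nuclear respiratory factor 1 (NRF1) and of the ETS factor GABP. Promoter windows from RefSeq (build GRCm38.p6, 250 bases before to 50 after the start) were found for 36 of the 48 subunits and searched on both strands for 5 motifs. The NRF1 motif, in capitals in the stretches below, was in 9 of 36, or 25%, against 5.19% of the 27025 genes with a window, and the ETS letters CCGGAAG in 13, or 36.1%, against 9.93%. Both were found among genes that fell and genes that did not: NRF1 letters in 6 of 23 that fell and 3 of 13 that did not pass, ETS letters in 8 of 23 and 5 of 13. The YY1 letters AAGATGGCG were in 2 of 36 (5.56%, against 1.64%), the Sp1 letters GGGCGG in 15 (41.7%, against 38.2%) and CCAAT in 20 (55.6%, against 41.1%). A match is a description of the letters and not a site. The 110 bases before the start are shown for Sdha, which holds the NRF1 letters 3 times, and for the c ring genes, of which only Atp5g3 passed, on the minus strand of GRCm38.p6, with NRF1 letters in capitals.
Sdha, chr13:74350241-74350350: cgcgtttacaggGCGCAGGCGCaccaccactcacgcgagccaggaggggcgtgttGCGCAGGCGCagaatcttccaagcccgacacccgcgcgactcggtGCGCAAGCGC
Atp5g1, chr11:96075632-96075741: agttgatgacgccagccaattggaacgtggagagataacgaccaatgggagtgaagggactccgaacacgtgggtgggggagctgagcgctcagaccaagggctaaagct
Atp5g2, chr15:102671048-102671157: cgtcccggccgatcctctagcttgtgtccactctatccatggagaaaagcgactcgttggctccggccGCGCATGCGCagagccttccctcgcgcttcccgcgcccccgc
Atp5g3, chr2:73911327-73911436: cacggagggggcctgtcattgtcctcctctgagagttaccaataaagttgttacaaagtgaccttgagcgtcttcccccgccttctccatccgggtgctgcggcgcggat
Sdha, which fell, and Atp5g2, which did not pass, both hold the NRF1 letters in this stretch. Atp5g3 holds them once in its window, after the start, and Atp5g1 not at all.

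The factors that build these complexes fell in part. Of 37 measured assembly factors 11 fell (29.7%, against 6.91% of all genes and 13.5% of genes above the background range), none rose and 26 did not pass, with a median of -0.17. For complex IV 8 of 22 fell, led by Cox11, which delivers copper to the enzyme (-0.76, limma adjusted p = 0.00853), Coa3, which binds the newly made core subunit (-0.53, limma adjusted p = 0.00743), and Taco1, which activates translation of that subunit (-0.49, limma adjusted p = 0.00123). For complex III 1 of 6 fell, Ttc19, which clears fragments of the Rieske protein (-0.62, limma adjusted p = 0.00253), and for complex V 2 of 5, Tmem242 (-0.27) and Fmc1 (-0.24), the Fmc1 means of 6.78 in knockout and 7.02 in wildtype both being within the background range. None of 4 complex II factors passed. The counts for complexes II, III and V are of too few genes to be read against the share of all genes. Of 8 factors with other roles near these complexes 2 fell, Ndufa4 (-0.59, limma adjusted p = 0.00282), named for complex I and since placed with complex IV, and 1810058I24Rik (-0.28, limma adjusted p = 0.0147), which is likewise too few to read. The ATP synthase inhibitor gene Atpif1 differed by -0.13 and did not pass.

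Complex I is shown for scale. Of 33 Nduf genes, Ndufa4 included, 22 fell (66.7%, against 6.91% of all genes and 13.5% of genes above the background range). Of the others 1 rose (Ndufb3, by 0.42, where 5.05% of all genes rose) and 10 did not pass. The median was -0.35, and the 3 largest falls were those of Ndufs4 (-0.83), Ndufb8 (-0.78) and Ndufa1 (-0.78). The 5th to 95th percentile of all genes tested spanned -0.39 to 0.36. Of these 30705 genes, 19315 had a mean within the background range, and percentiles of brighter genes alone were not computed. A fall of the size seen for Sdha, Uqcrb, Cox5b or Atp5g3 lay beyond the lower end of this span of all genes. Falls such as those of Cyc1, Atp5b, Atp5e and Atp5d lay inside it.

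**Figure D5:**
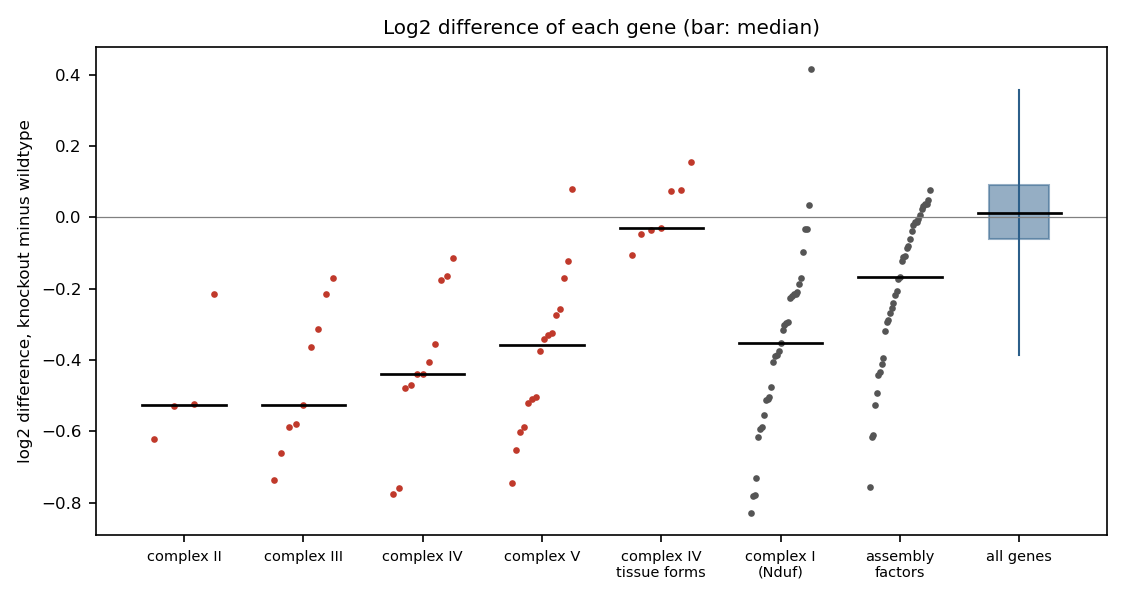
Log2 difference, knockout minus wildtype, of each gene of complexes II to V (tissue forms of complex IV in a column of their own, Cox7a2l kept with complex IV), of complex I and of the assembly factors, with bars for medians. The last column gives all 30705 genes, the box spanning the 25th to 75th percentile (-0.06 to 0.09) and the line the 5th to 95th (-0.39 to 0.36).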

How the data were processed

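RNA of 3 knockout and 3 wildtype podocyte samples had been hybridized to Affymetrix arrays. Per the submitters' processing notes, the authors used RMA in affy 1.44.0, and the deposited table holds the resulting log2 intensity of each probe set. The sources used here name no probe definition file or filter. Of 72688 probe sets, 31261 named 1 gene in the platform annotation, and 441 genes with several were read from the brightest over all 6 arrays, which left 30705 genes. Symbols were updated through the GRCm38.p6 gene table. Pseudogene copies of subunit genes can share probes. Knockout was compared with wildtype over all genes by limma 3.58.1 (lmFit, eBayes, no covariate, no filter) in R 4.3.3, with Benjamini-Hochberg adjustment at 0.05.

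Every gene is named at least once. Values per array are given for the 4 largest changes in complex II, in complex III with cytochrome c, in complex IV and in complex V and for isoform pairs in which a gene passed, and the 3 largest called changes are named per related list. Per-array values of Cox8a and Cox6b1, genes of related lists that did not pass and Ndufb3 were added after they were seen. The genes and lists were chosen with earlier results of these data known. Alternatives covered normalization, filters, probe set choice, model, threshold and leaving out each array.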

Additional observations from a re-analysis of the deposited data

How the results depend on the processing

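Each of the 29 falls kept its direction under every alternative tried, and 19 of them also passed under all of these: an adjusted p under 0.01 (19 falls in all, 3 in complex III and 6 in complex V), renormalized or recentred arrays, chromosome medians, all probe sets, filters, averaged probe sets, the replicate block, trend and robust estimation, array weights and leaving out each array. With 1 array left out the total ran from 21 to 31, complex III from 4 to 6 and complex V from 6 to 11. Deviations of same-numbered arrays correlated at 0.35, 0.28 and 0.04 over genes, against -0.34 to 0.05 for other pairs, and every array but knockout replicate 3 correlated best with its own number. The labels tie the numbers to no shared batch and 1 pair is near 0, so pairing is not established. With that number as a replicate block 31 genes fell, with Cox8a, Atp5g1 and Atp5md gained (limma adjusted p = 0.0482, 0.0423 and 0.0399) and Atp5b lost. With array weights, which gave wildtype replicate 3 a weight of 54.74, 39 fell and 10173 of all genes passed, against 3673 in the main comparison, 2080 to 3390 with 1 array left out and 1949 at 0.01, and no result rests on that fit. Without tissue forms, Cox7a2l and Atp5sl 29 fell and without genes in the background range 28, both added after the data were seen, as was the use of own-chromosome probe sets (29). None of the 49 genes rose under any of these alternatives, while 1552 of all genes rose by limma in the main comparison. Values that changed sign were all of tissue forms that did not pass. With array weights Cox8b gave 0.116, Cox4i2 -0.022 and Cox7b2 -0.019. With 1 array left out Cox8b ranged from -0.144 to 0.126, Cox8c from -0.113 to 0.035, Cox6b2 from -0.108 to 0.041, Cox4i2 from -0.004 to 0.126, Cox6a2 from -0.039 to 0.157 and Cox7b2 from -0.06 to 0.296. Signal over background limits what the tissue forms, Atp5e, Uqcr10, Uqcrfs1, Fmc1, Ndufa4l2 and Higd1a can show. The cause of these changes was not tested.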
